A study of Solanum lycopersicum with 24 samples.

Results

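The genes described here encode enzymes that cut the polysaccharides of the plant cell wall: endoglucanases, which cut glucan chains internally, and galactosidases, which remove terminal galactose residues. They were taken from 2 tables of fold changes deposited by the authors, one for drought and one for heat. The rule took probe sets with the gene symbol Cel1, cellulase or TBG3, or with a gene title naming a cellulase, a 1,4-beta linkage or a galactosidase. It found 11 probe sets of 10209 on the array, 7 of them in the drought table and 6 in the heat table, with 2 in both. The tables list 3068 probe sets between them, and 475 of these carry a gene symbol. By title, 5 of the 11 are endoglucanases (Cel1, Cel2, cellulase, cel5 and cel7), 4 are beta-galactosidases (TBG1, TBG2, TBG3 and tEG3) and 2, LeaGal and SIP, are alpha-galactosidases, so the name of the set holds for 9 of them.

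The study profiled leaves of tomato (Solanum lycopersicum) at flowering on the Affymetrix GeneChip Tomato array. Each experiment had a susceptible and a tolerant genotype, each with control and stressed plants, and each of the 8 groups had 3 arrays. All control plants were kept in a greenhouse under normal conditions. Droughted plants went 7 days without water, and heated plants spent 60 min at 40 C in a growth chamber. The genotypes are labelled only by their tolerance of drought or of heat, so susceptible plants of the drought experiment may be another line than those of the heat experiment. The labels do not say that replicates came from separate plants, so p-values cover the spread between these arrays only, and that spread may be technical.

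Endoglucanases of this type belong to glycoside hydrolase family GH9 and act on amorphous glucans of the wall during growth, abscission of organs and fruit softening. Beta-galactosidases of plants trim galactose from the side chains of pectin and xyloglucan, and some act on galactolipids or other galactosides. Alpha-galactosidases act on galactomannans and on sugars of the raffinose family, which many plants store in seeds or accumulate under stress. In tomato both Cel1 and Cel2 are known from abscission zones and ripening fruit, and the TBG family is known from ripening fruit.

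The genes were thus chosen by measured values: each table required a genotype by treatment term past a corrected p of 0.05, and in 1 genotype or both a 2-fold response or more. Each gene symbol is measured by 1 probe set, but the probe sets Cel2 and cellulase may belong to 1 gene. Drought responses of the 7 genes from the drought table, and heat responses of the 6 from the heat table, are therefore descriptions with no test. Tests are given for the heat responses of the 5 genes that only the drought table lists, for the drought responses of the 4 that only the heat table lists, and for the mean difference between genotypes in those same cases. Absence from a table is a selection too, since the gene then missed that table's criteria. Nearest to the 2-fold limit in the authors' deposited tables were SIP, at 2.17-fold higher, and cel5, at 2.41-fold lower, both in heated susceptible plants. Probe sets just outside the limit have no gene name here.

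Levels are log2 values as deposited, so a difference of 1 is a doubling, and levels of different probe sets are not compared. Array medians ran from 7.14 to 7.61. Replicates of susceptible groups correlated at 0.9967 or higher, against 0.919 to 0.963 in tolerant drought groups and 0.946 to 0.998 in tolerant heat groups. Each fit used 1 spread per probe set over 4 groups. Standard errors for tolerant plants of the drought experiment may thus be too small and those for susceptible plants too large. The same may hold in the heat experiment. There the median SD of probe sets was 0.29 in tolerant and 0.09 in susceptible controls, and 0.17 and 0.11 after heat. The background, taken on each array as the 95th percentile of 63 reporter probe sets that match no tomato gene, was 4.22 to 4.46 in susceptible drought groups and 5.54 to 6.78 in tolerant drought groups. In the heat experiment it was 4.60 to 5.06 in susceptible plants, 5.75 to 6.83 in tolerant controls and 4.64 to 4.98 in heated tolerant plants. The difference between 3′ and 5′ probe sets of actin, gapdh and ef1a, a measure of RNA integrity, averaged 1.25, 0.74, 2.89 and 1.64 log2 units in susceptible control, susceptible droughted, tolerant control and tolerant droughted groups, and 3.58, 3.15, 4.45 and 4.13 in the matching heat groups. Background was higher in tolerant plants except after heat, where it was lower than in their controls. The 3′ minus 5′ difference is larger where RNA is less intact. It was higher in tolerant plants and lower in each stressed group than in its controls. Both thus moved with genotype and with stress, and their part in the results was not tested. Where at least 2 of 3 arrays of the dimmer group lay at or under this background, the difference is printed as a bound. Where only 1 array lay there, it is printed as measured. That held in droughted tolerant plants for Cel2, cellulase, TBG1, TBG3 and LeaGal. It also held for tEG3 in tolerant drought controls and TBG2 in tolerant heat controls. The 14 leaf probe sets had medians of 9.99 in droughted susceptible and 9.54 in droughted tolerant plants. In the other groups their medians were 11.18 to 11.94, and 1 to 3 of them were near background in a group. Not all of them fell under drought. The ca3 probe set went from 4.94 to 11.45 in susceptible plants, and a psbF probe set from 9.13 to 10.54 in tolerant plants. The 6 flower and pollen probe sets had medians of 3.33 to 6.76 and 3 or 4 near background in 7 groups, but only 1 in droughted tolerant plants. In whole leaves, fewer cells of a type and less RNA per cell cannot be told apart.

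Cel1 had opposite directions in both genotypes under both stresses. In the drought experiment, susceptible controls measured 9.24, 9.09 and 9.23 and droughted plants 4.32, 4.09 and 4.08. Tolerant controls measured 7.37, 7.32 and 6.34 and droughted plants 7.43, 7.91 and 7.57. All 3 droughted susceptible arrays lay near background, so Cel1 was lower there by a log2 difference of −4.78 or lower, while in tolerant plants it was higher by 0.63 ± 0.25 (SE, n = 3 per group). The tolerant difference rested largely on the third control array, which was low, and was 0.29 without it. Control plants of the tolerant genotype stood at 7.01 ± 0.58 (SD, n = 3), under the 9.18 ± 0.08 of susceptible controls, and this order turned under drought.

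Under heat, Cel1 measured 9.81, 9.73 and 9.66 in susceptible controls and 7.85, 8.02 and 7.92 after heat. Tolerant controls measured 8.99, 9.01 and 9.18 and heated tolerant plants 9.41, 9.56 and 9.33. The heated susceptible arrays were the lowest of the experiment, with no overlap with any other group. The responses were −1.80 ± 0.10 and 0.38 ± 0.10 log2 units, a difference of 2.18 between genotypes, and this contrast also chose the gene. Across all 8 groups the order of Cel1 ran from 9.73 in susceptible controls of the heat experiment to 4.16 in droughted susceptible plants. Neighbours overlapped in 2 places of that order, between susceptible drought controls and tolerant heat controls and between heated susceptible and droughted tolerant plants.

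The probe set named cellulase had group means that spanned 5.67 log2 units, against a median of 2.05 over all probe sets. Its symbol is also listed as a synonym of Cel2, so the match to one gene is uncertain. It measured 10.52, 10.59 and 10.67 in susceptible controls and 4.88, 4.96 and 4.93 after drought. Tolerant plants went from 10.33, 10.23 and 10.39 to 6.23, 5.12 and 7.41. Both droughted groups lay far under their controls, and the droughted tolerant arrays were spread over more than 2 log2 units. The differences were −5.67 ± 0.43 in susceptible and −4.06 ± 0.43 in tolerant plants. The second droughted tolerant array lay under its own background of 6.14. The gap between these responses, 1.61, ran from 1.03 to 2.18 with an array left out, and was lowest without the third droughted tolerant array.

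Heat did not choose cellulase and could be tested. Its level was 9.05, 9.25 and 9.21 in susceptible controls and 8.53, 8.65 and 8.46 after heat, without overlap. It fell there by 0.63 ± 0.14 log2 units (adjusted p = 0.00735). In tolerant plants the values were 9.47, 9.76 and 9.17 before and 9.35, 9.24 and 9.25 after heat, which overlapped. The tolerant difference of −0.19 ± 0.14 did not pass (adjusted p = 0.271). The difference between these heat responses, 0.44, was not called, except with array weights or without the second tolerant control array. The tolerant response was called after repeated quantile normalization, with arrays centred on their medians or with array weights. It was also called without the third control array (adjusted p of 0.0065 to 0.0272 in these settings). The susceptible call was lost with all 24 arrays in a single fit (adjusted p = 0.259).

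Cel2, an endoglucanase known from ripening fruit, was lower in droughted plants of both genotypes. Susceptible plants went from 9.74, 9.75 and 9.90 to 5.08, 4.90 and 4.99, and tolerant plants from 9.09, 9.35 and 9.13 to 6.14, 7.74 and 6.14. The second droughted tolerant array stood well above the other two but still below every control. The log2 differences were −4.80 ± 0.36 and −2.52 ± 0.36. After heat, susceptible plants went from 10.03, 10.00 and 9.97 to 9.34, 9.46 and 9.28, and tolerant plants from 9.74, 9.88 and 9.67 to 9.84, 9.73 and 9.90. Cel2 fell in heated susceptible plants by 0.64 ± 0.10 (adjusted p = 0.00063), while the tolerant groups overlapped, at 0.06 ± 0.10 (adjusted p = 0.623). The difference between these heat responses was 0.70 ± 0.14 and passed the test (adjusted p = 0.00488).

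The gene cel5 was listed for heat, where susceptible plants went from 8.05, 8.02 and 7.98 to 6.72, 7.04 and 6.90. In tolerant plants the values were 8.12, 8.45 and 8.25 before and 8.19, 8.23 and 8.33 after heat, which overlapped. The heat differences were −1.13 ± 0.12 and −0.03 ± 0.12. Its drought response was not used by the rule: susceptible plants went from 8.52, 8.48 and 8.35 to 4.20, 4.24 and 4.38, and tolerant plants from 8.58, 9.49 and 8.61 to 5.06, 5.90 and 4.97. Both droughted groups lay near background on all 3 arrays. It fell by a log2 difference of −4.05 or lower in susceptible plants (adjusted p = 1.38e-06) and of −2.70 or lower in tolerant plants (adjusted p = 4.25e-06).

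The gene cel7 was the one endoglucanase whose susceptible groups overlapped under drought, where controls of 6.04, 5.88 and 5.82 overlapped with 5.79, 5.91 and 5.71 after drought. Tolerant controls were higher, at 8.10, 7.74 and 7.18, and droughted tolerant plants measured 5.50, 4.88 and 3.74, all near background. The tolerant difference was −1.48 or lower, against −0.11 ± 0.38 in susceptible plants. Heat left it at 7.05, 7.02 and 6.94 before and 6.40, 6.77 and 6.56 after in susceptible plants, and at 7.31, 7.04 and 7.92 before and 7.23, 7.33 and 6.74 after in tolerant plants. Only the susceptible groups were free of overlap. Neither heat response passed the test, with −0.43 ± 0.22 in susceptible (adjusted p = 0.22) and −0.33 ± 0.22 in tolerant plants (adjusted p = 0.222). The tolerant value was −0.08 without the third control array. The susceptible response was called with only its arrays fitted or with array weights (adjusted p of 0.00019 to 0.0064). The tolerant one was called with arrays centred on their medians (adjusted p = 0.0429).

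**Figure D1:**
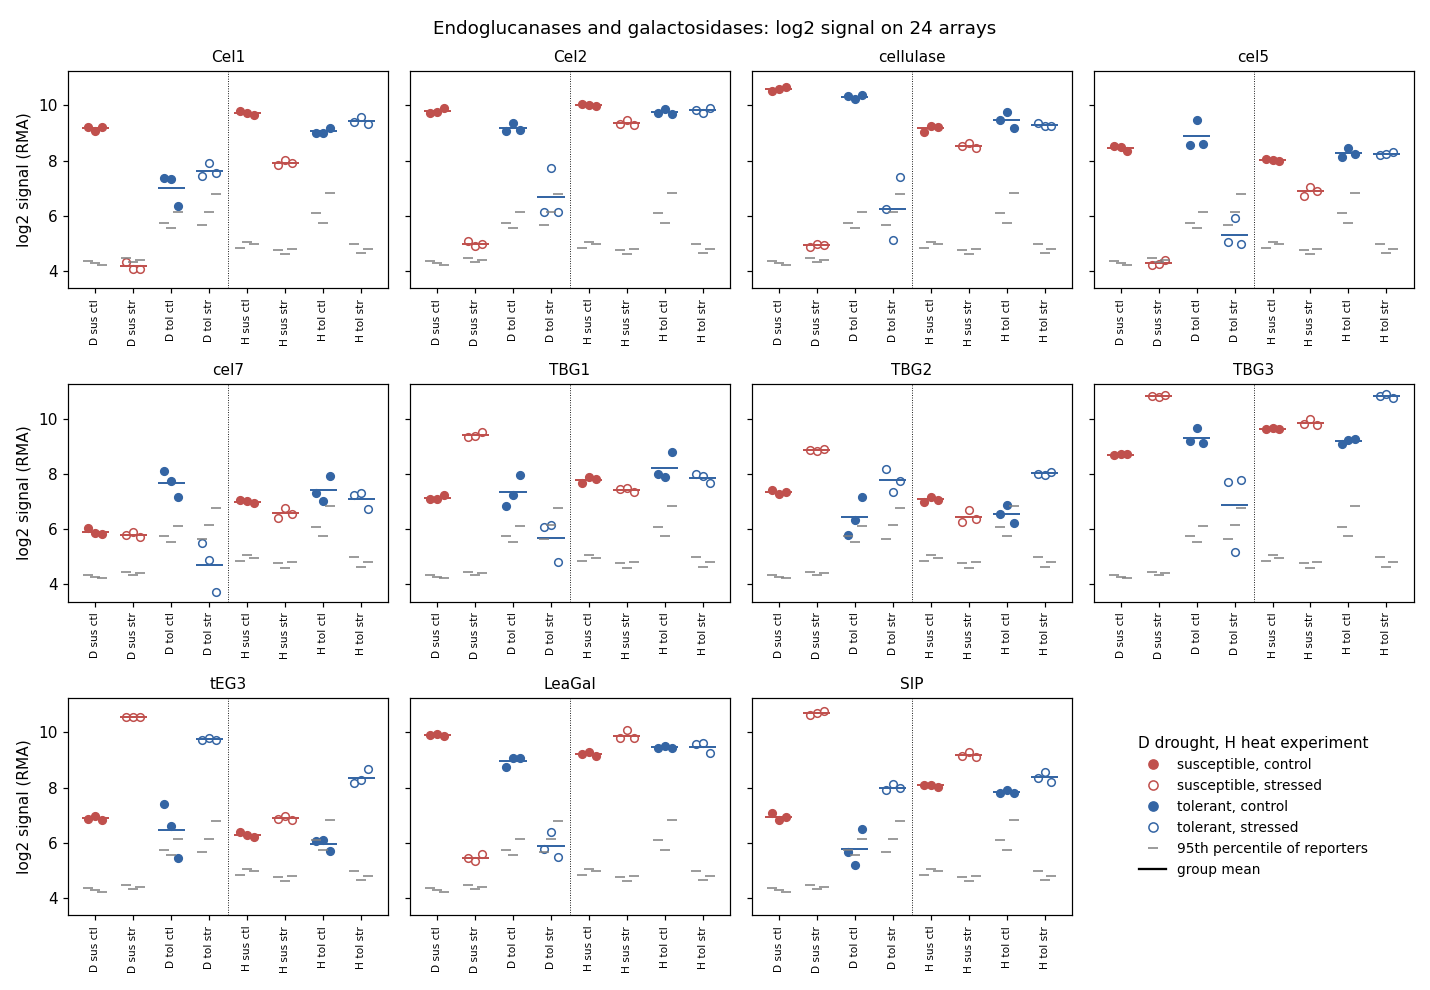
Deposited log2 level (vertical axis) of each of the 11 genes on each array, by group (horizontal axis), with points for single arrays and a bar for each group mean. Droughted susceptible plants hold the lowest arrays of Cel1, at 4.08 to 4.32, and TBG3 arrays of 10.81 to 10.88, which overlap with those of heated tolerant plants at the top.

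TBG3, a beta-galactosidase found in both tables, was higher in droughted susceptible plants and lower in droughted tolerant plants. Susceptible plants went from 8.69, 8.71 and 8.72 to 10.82, 10.81 and 10.88. Tolerant plants went from 9.18, 9.65 and 9.14 to 7.72, 5.17 and 7.78. The second droughted tolerant array stood more than 2 log2 units below the others and under its own background of 6.14. The responses were 2.13 ± 0.56 and −2.44 ± 0.56 log2 units, and the tolerant one was −1.58 without that array.

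After heat TBG3 differed more from its controls in tolerant plants. Tolerant controls measured 9.09, 9.25 and 9.26 and heated plants 10.83, 10.90 and 10.75, a difference of 1.63 ± 0.10. Susceptible plants measured 9.63, 9.67 and 9.63 before and 9.81, 9.99 and 9.77 after heat, which did not overlap and differed by 0.21 ± 0.10. Over the 8 groups, TBG3 was highest in droughted susceptible plants, at 10.84 ± 0.04, and in heated tolerant plants, at 10.83 ± 0.07, and arrays of these groups overlapped. It was lowest in droughted tolerant plants, at 6.89 ± 1.49 (SD, n = 3 for each group).

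TBG1, another beta-galactosidase, had the same pair of directions under drought. It went from 7.09, 7.09 and 7.23 to 9.36, 9.40 and 9.51 in susceptible plants and from 6.84, 7.23 and 7.96 to 6.07, 6.15 and 4.80 in tolerant plants. No droughted array lay within the range of its controls. The differences were 2.28 ± 0.36 and −1.67 ± 0.36. In the heat experiment susceptible plants measured 7.68, 7.88 and 7.84 before and 7.48, 7.49 and 7.34 after heat, and tolerant plants 8.00, 7.91 and 8.80 before and 8.00, 7.95 and 7.68 after. The tolerant groups overlapped and the susceptible ones did not. Heat gave −0.36 ± 0.20 in susceptible plants (adjusted p = 0.268) and −0.36 ± 0.20 in tolerant plants (adjusted p = 0.157), neither past the test. The tolerant value was −0.07 without the third control array. The susceptible response was called with only its arrays fitted, with array weights or without that tolerant array (adjusted p of 0.00023 to 0.0208). The tolerant one was called after repeated quantile normalization, with arrays centred on their medians or without the second control array (adjusted p of 0.0308 to 0.0459).

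TBG2 was listed for heat and had opposite directions there. Susceptible plants went from 6.99, 7.18 and 7.07 to 6.28, 6.71 and 6.36, and tolerant plants from 6.56, 6.89 and 6.21 to 8.02, 7.98 and 8.07. The heated tolerant arrays were above all others of the experiment, and tolerant controls lay in a group whose background reached 6.83. The differences were −0.63 ± 0.17 and 1.47 ± 0.17. Under drought, which the rule did not use, TBG2 rose in susceptible plants from 7.41, 7.29 and 7.33 to 8.87, 8.85 and 8.90, by 1.53 ± 0.31 (adjusted p = 0.00271). It also rose in tolerant plants, from 5.79, 6.35 and 7.17 to 8.20, 7.34 and 7.76, by 1.33 ± 0.31 (adjusted p = 0.00511). That last call was lost when only the tolerant arrays were fitted (adjusted p = 0.0615).

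The probe set tEG3, which the RefSeq gene table names TBG4, rose under drought in both genotypes. TBG4 is a beta-galactosidase of fruit softening. Its values went from 6.87, 6.97 and 6.81 to 10.57, 10.55 and 10.57 in susceptible plants and from 7.42, 6.59 and 5.43 to 9.73, 9.80 and 9.74 in tolerant plants. Droughted arrays were close together in both genotypes, while tolerant controls spread over almost 2 log2 units. The rises were 3.68 ± 0.38 (adjusted p = 2.66e-05) and 3.28 ± 0.38 (adjusted p = 5.38e-05), and the difference between them, −0.40 ± 0.53, did not pass (adjusted p = 0.602). Without the third tolerant control array it was −0.93 and called (adjusted p = 0.0241). Under heat, which chose the gene, susceptible plants went from 6.40, 6.27 and 6.20 to 6.85, 6.99 and 6.81, by 0.59 ± 0.15. Tolerant plants went from 6.06, 6.11 and 5.69, near background on 2 of 3 arrays, to 8.15, 8.28 and 8.67, by at least 2.02.

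LeaGal, an alpha-galactosidase, was lower in droughted plants of both genotypes. It went from 9.92, 9.93 and 9.86 to 5.46, 5.34 and 5.59 in susceptible plants and from 8.73, 9.08 and 9.08 to 5.76, 6.40 and 5.48 in tolerant plants. The differences were −4.44 ± 0.21 and −3.08 ± 0.21, with droughted arrays of both genotypes over 2 log2 units below their controls. Heat raised it in susceptible plants, from 9.23, 9.28 and 9.16 to 9.78, 10.08 and 9.80, by 0.66 ± 0.12 (adjusted p = 0.00238). Tolerant plants measured 9.44, 9.50 and 9.45 before and 9.56, 9.64 and 9.25 after heat, which overlapped, with a difference of 0.02 ± 0.12 (adjusted p = 0.892). The difference between these heat responses was −0.64 ± 0.17 (adjusted p = 0.021), a call lost without the third susceptible control array, where it was −0.61 with an adjusted p of 0.053.

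SIP, titled an alkaline alpha-galactosidase and seed imbibition protein, rose under drought in both genotypes. It went from 7.07, 6.84 and 6.92 to 10.61, 10.70 and 10.77 in susceptible plants and from 5.66, 5.19 and 6.51 to 7.90, 8.12 and 7.98 in tolerant plants. The rise was 3.75 ± 0.27 in susceptible plants (adjusted p = 1.94e-06). It was at least 2.07 in tolerant plants (adjusted p = 7.42e-05), whose controls were near background on 2 of 3 arrays. The test of the difference between these responses passed (adjusted p = 0.00978), with no size given because of that background. Under heat it was higher in both genotypes as well, by 1.10 ± 0.11 and 0.53 ± 0.11, from 8.11, 8.10 and 8.03 to 9.15, 9.29 and 9.10 and from 7.81, 7.91 and 7.82 to 8.35, 8.58 and 8.20. The heated susceptible arrays lay above all others of the heat experiment.

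**Figure D2:**
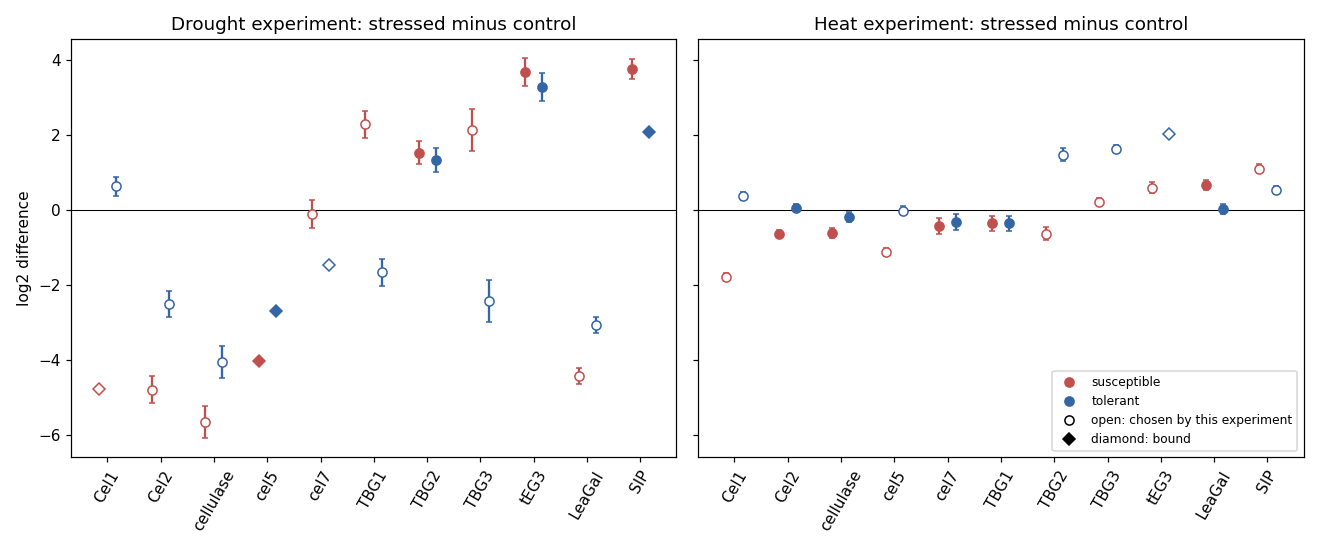
Stress response of each gene as log2 difference between stressed and control means, in susceptible and tolerant plants of each experiment, with bars for the standard error of the fit and separate marks where a value is a bound. Under drought TBG1 and TBG3 lie above 0 in susceptible plants, at 2.28 and 2.13, and below 0 in tolerant plants, at −1.67 and −2.44.

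Counted over the contrasts that the rule did not use, all 4 genes from the heat table alone were called for a drought response in both genotypes. In each genotype TBG2, tEG3 and SIP rose and cel5 fell. Of all probe sets, 42.8% were called for the drought response of susceptible plants (23.1% higher, 19.7% lower) and 50.6% for that of tolerant plants (27.4% higher, 23.2% lower). Drought moved so many probe sets that a count over 4 genes says little by itself. Of the same 4, only SIP was called for a difference between the drought responses, against 37.2% of all probe sets, and nothing is read from it because absence from the drought table selects against such a difference.

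For the heat response of the 5 genes from the drought table alone, 3 were called in susceptible plants, with Cel2 and cellulase lower and LeaGal higher, against 21.3% of all probe sets (12.1% higher, 9.15% lower). In tolerant plants 0 of the 5 were called by limma, and 0 had an unadjusted p under 0.05, against 55.1% of all probe sets called. That count of 0 was 2 after repeated quantile normalization, 4 with arrays centred on their medians and 2 with array weights. With all 24 arrays in a single fit, LeaGal alone of the 5 was called in susceptible plants, and none for a difference between responses. The difference between heat responses was called for Cel2 and LeaGal, against 27.6% of all probe sets. Absence from the heat table selects against such a difference and can select against a large response, so nothing is read from these counts.

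Where the rule used the contrast, 6 of the 7 genes from the drought table had no overlap between droughted and control arrays of susceptible plants, beside 77.0% of all probe sets, and cel7 overlapped. In tolerant plants none of the 7 overlapped, beside 48.2%. Of the 6 genes from the heat table, none overlapped in susceptible plants, beside 54.6%, and cel5 alone did in tolerant plants, beside 55.9%. Over all 11 genes, the median drought response was −0.11 in susceptible plants (5 above 0, 6 below) and −2.44 in tolerant plants (4 above, 7 below). Over all probe sets it was 0.05 and 0.11. The drought table chose 7 of the 11 genes by this response, so nothing is read from these medians. The median heat response, by which the heat table chose 6 of the 11, was −0.43 and 0.06 in susceptible and tolerant plants. Over all probe sets the latter was 0.01 and the former nearer to 0.

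The mean difference between genotypes, averaged over control and stressed plants, is another contrast than those that chose the genes, but it rests on the same arrays and the same spread. It is therefore tested only for genes that the table of that experiment does not list, and is a description for the others. In the drought experiment 3 of the 4 unlisted genes were called, against 73.3% of all probe sets (43.2% higher in tolerant plants, 30.1% lower). TBG2 was lower in tolerant plants, by −1.003 ± 0.22 log2 units (adjusted p = 0.0022), and SIP by −1.86 or lower (adjusted p = 8.66e-06). The call for cel5 (adjusted p = 0.00727) has no size because its droughted plants were near background in both genotypes, and it was lost after repeated quantile normalization (adjusted p = 0.257). The value for tEG3, −0.60 ± 0.27, did not pass (adjusted p = 0.0628). It was −0.34 without the third tolerant control array, and it was called without that array or the first, with array weights and with all 24 arrays in a single fit (adjusted p of 0.0026 to 0.047).

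The called genes with a size, SIP and TBG2, were lower in tolerant plants in control and in droughted groups alike. SIP was lower in tolerant controls by −1.01 or lower and in droughted tolerant plants by −2.70. TBG2 was lower by −0.91 in controls and by −1.10 in droughted plants. SIP and TBG2 were picked by the mean of their control and droughted differences, so these values are descriptions with no test. Among the listed genes, the droughted groups carried the mean difference of TBG1, −1.77 ± 0.25, which was 0.21 in controls and −3.75 in droughted plants. The same held for TBG3, at −1.66 ± 0.40, with 0.62 and −3.95, and the mean was −1.23 without the second droughted tolerant array. The mean difference of Cel1, higher in tolerant plants by at least 0.53, averaged opposite directions. Controls stood at 7.01 in tolerant and 9.18 in susceptible plants. Droughted plants stood at 7.63 in tolerant and 4.16 in susceptible plants, the latter near background.

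In the heat experiment 3 of the 5 unlisted genes were called, against 57.5% of all probe sets (31.6% higher in tolerant plants, 25.9% lower). Tolerant plants had more cellulase, by 0.51 ± 0.10 (adjusted p = 0.00136), more cel7, by 0.47 ± 0.15 (adjusted p = 0.0231), and more TBG1, by 0.44 ± 0.14 (adjusted p = 0.0232). With all 24 arrays in a single fit these calls were lost, that of cellulase at an adjusted p of 0.0766. The call for TBG1 was also lost without the first susceptible control array, the third heated susceptible array, or the first or second heated tolerant array (adjusted p from 0.0515, and 0.0996 with all 24 arrays). That for cel7 was also lost without the first heated susceptible array or the first or second heated tolerant array (adjusted p from 0.0547, and 0.0982 with all 24 arrays). Cel2, at 0.11 ± 0.07 (adjusted p = 0.188), and LeaGal, at −0.08 ± 0.09 (adjusted p = 0.442), did not pass.

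Among the genes that the heat table lists, the mean differences were 0.81 ± 0.08 for cel5, 0.52 ± 0.12 for TBG2, 0.42 ± 0.07 for Cel1, 0.26 ± 0.07 for TBG3 and −0.52 ± 0.08 for SIP, with none given for tEG3. In heated plants alone, tolerant minus susceptible was 1.57 for TBG2, 1.36 for cel5 and 0.97 for TBG3, beside −0.53, 0.26 and −0.45 in their controls. Cel1 stood at 9.06 in tolerant and 9.73 in susceptible controls, and at 9.44 and 7.93 after heat, so its order turned. SIP was lower in tolerant plants throughout, at 7.84 against 8.08 in controls and 8.38 against 9.18 after heat. The heat response chose these genes, so those values have no test.

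**Figure D3:**
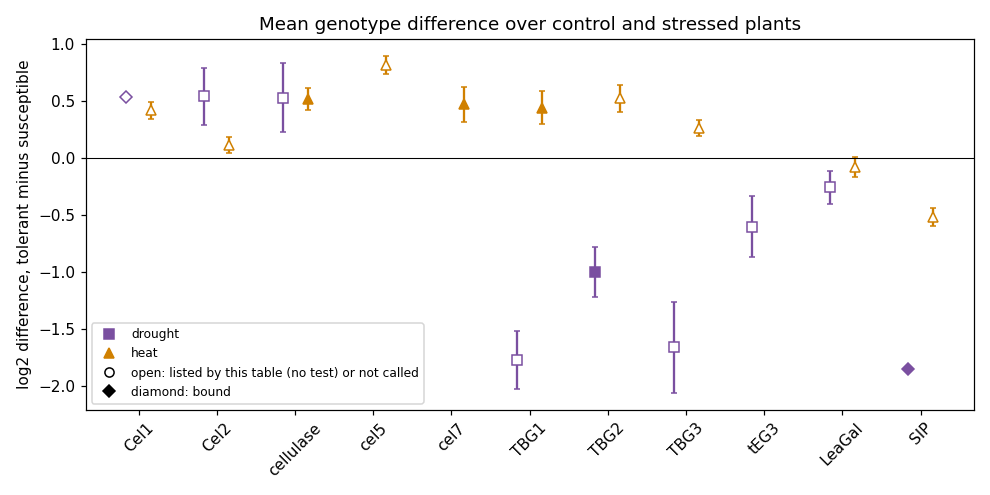
Mean log2 difference between tolerant and susceptible plants over control and stressed groups, per gene and experiment, with bars for the standard error of the fit, diamonds for bounds, filled marks for calls and open marks for values that were not tested or not called. SIP lies below 0 in both experiments and TBG1, TBG2 and TBG3 lie below 0 in the drought and above 0 in the heat experiment; cel5 and cel7 in the drought and tEG3 in the heat experiment are left out because they have no size.

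Among named genes of the tables, the patterns most like that of cellulase over the 8 group means were those of cel5 (Pearson r = 0.982), Cel8 (0.969) and LOC543656 (0.963), out of 458 candidates. Cel8 is a further endoglucanase. Closest to Cel1 were LOC544225, a peptide deformylase-like protein (0.967), BI-GST/GPX, a glutathione S-transferase and peroxidase (0.945), and the auxin response protein gene IAA11 (0.921). Closest to TBG3 were the transcription factor gene THM27 (0.924), LOC544050, an ADP/ATP translocator (0.923), and LOC544001 (0.911). The 8 means share their arrays and all candidates were selected for a response in these experiments, so these correlations are descriptions.

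**Figure D4:**
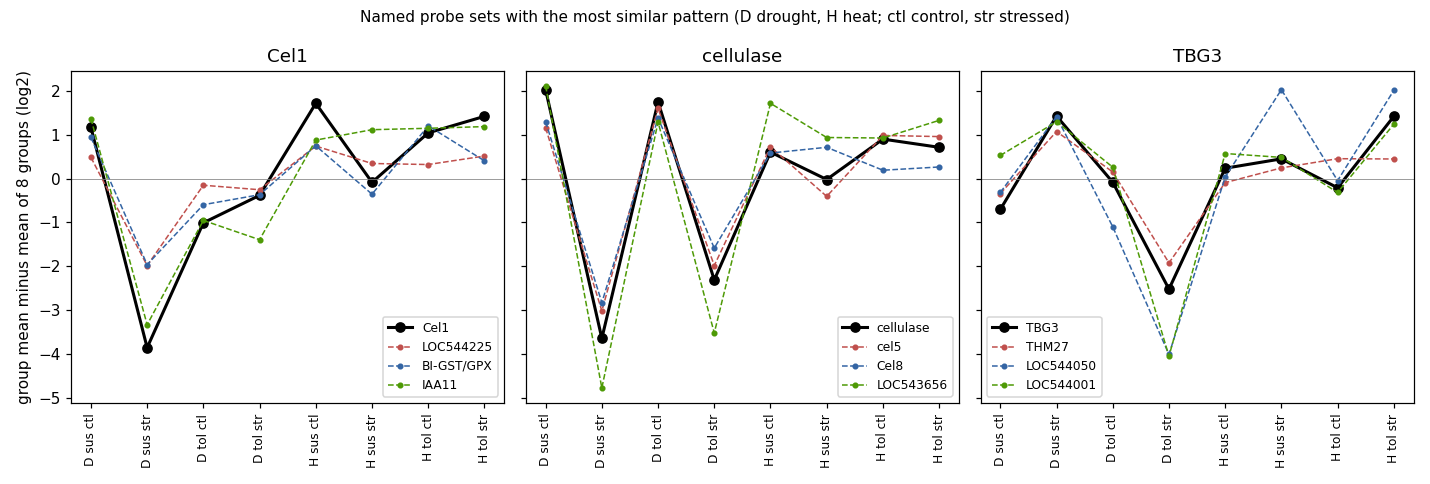
Group means on the log2 scale of Cel1, cellulase and TBG3, each with the 3 named genes of highest Pearson correlation over the 8 groups. Cellulase and cel5, at a correlation of 0.982, are lowest in droughted susceptible and droughted tolerant plants.

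Another 3 genes of the same families fell outside the rule by the wording of their titles and were added after the tables were seen. The endoglucanase Cel8 had group means of 10.91 and 6.79 in control and droughted susceptible plants and 10.99 and 8.03 in tolerant plants, and its probe set may match related transcripts. LOC543671 went from 8.99 to 3.67 in susceptible plants, a difference of −4.58 or lower, and from 9.16 to 6.63 in tolerant plants, by −2.52. The beta-galactosidase TBG5 went from 9.53 to 9.01 and from 9.16 to 6.57, so it too was lower in droughted tolerant plants, by −2.59. These drought values chose the genes. Under heat TBG5 fell in tolerant plants by 0.64 ± 0.11 (adjusted p = 0.000641), with −0.02 in susceptible plants (adjusted p = 0.949), and the difference passed the test (adjusted p = 0.0123). Heat responses of Cel8 and LOC543671 did not pass in either genotype.

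A list of other enzymes of wall polysaccharides held 5 further genes, and 6 of their 10 tested responses were called. Of all probe sets, between 21.3% (heat, susceptible) and 55.1% (heat, tolerant) were called for the same 4 responses, so this count is not far from the background. LeARF1, an alpha-L-arabinofuranosidase that removes arabinose from wall polymers, fell in heated susceptible plants by 0.57 ± 0.12 (adjusted p = 0.00421) and rose in heated tolerant plants by 0.88 ± 0.12 (adjusted p = 0.000152). The beta-mannosidase LOC543698 fell in heated susceptible plants by 0.79 ± 0.11 (adjusted p = 0.000249), with −0.10 in tolerant plants (adjusted p = 0.466). The glucan endo-1,3-beta-glucosidase gene tomQ`b fell in heated tolerant plants by 0.86 ± 0.12 (adjusted p = 0.000245), with −0.26 in susceptible plants (adjusted p = 0.189). Its relative tomQ`a was near background in every heat group. PMEU1, a pectin methylesterase, which removes methyl groups from pectin, fell under drought by 0.68 ± 0.17 in susceptible plants (adjusted p = 0.00835) and, in tolerant plants, by a difference of −1.59 ± 0.17 (adjusted p = 3e-05).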

How the data were processed

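The authors deposited log2 values for each probe set, and the submitters' processing notes name RMA 1.0 and Affymetrix Expression Console. It is not stated in those notes if the 24 arrays shared 1 run. They also deposited a table of fold changes per experiment as linear ratios of at least 1, and per the file headers these list probe sets past a corrected p of 0.05 for genotype by treatment and a fold of 2. These deposited folds pointed the same way as the value table in 6686 of 6884 comparisons (97.12%) and in 26 of 26 for the genes described, with a median deviation of 0.107 log2 units over all. For the genes described the median deviation was 0.152 and the largest 0.555 log2 units. Only 631 of the 6884 folds (9.17%) lay within 1% of the value table.

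Without the 108 AFFX controls, 10101 probe sets entered the tests. The 12 arrays of an experiment were fitted as 4 group means (lmFit and eBayes in limma 3.58.1, R 4.3.3), with no further normalization, by code tested on simulated data. P-values are two-sided and adjusted by Benjamini and Hochberg over 10101 probe sets, and a call is an adjusted p under 0.05. For a bound, values under an array's background, the reporters' 95th percentile, were raised to it. Every gene found by the rule is named, with the 3 most alike genes for Cel1, cellulase and TBG3 and the whole list of other wall enzymes. The genes, lists and the bound rule were chosen with earlier results of these data known. Gene names came from the deposited tables, and 11 of 11 matched the RefSeq gene table of assembly SLM_r2.1. The name cellulase matched both its own entry and Cel2. Alternatives were another normalization, other spreads, weights, a block and single arrays left out. The number of arrays limits the precision. No genome was used, and sequences and positions are not given here.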

Additional observations from a re-analysis of the deposited data

Results flagged for a closer look

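LeaGal and Cel2 were singled out because their heat responses differed between genotypes by the test of that difference, at −0.64 (adjusted p = 0.021) and 0.70 log2 units (adjusted p = 0.00488), tolerant minus susceptible. In another 5 cases every stressed array of one genotype moved up from its controls and every stressed array of the other moved down. These were TBG1 under drought, with a difference of responses of −3.96, TBG3 under drought, with −4.56, and Cel1 under drought, with a fitted value of 5.65 (at least 5.41 as a bound). The other two were TBG2 under heat, with 2.10, and Cel1 under heat, with 2.18. Those differences were not tested, since the same contrasts chose the genes.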

How the results depend on the processing

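For 49 contrasts of single genes, the replicate block changed no call (49 the same). Leaving out the dimmest 25 percent of probe sets changed none either. The 49 include mean genotype differences of listed genes, which are given above as descriptions. Same-numbered arrays deviated with correlations of −0.339 to 0.360. Arrays of different numbers were not compared, so these values cannot settle whether the numbers pair arrays. Genes from the drought table called for heat in susceptible plants (3) numbered 5 with only the groups compared, 5 with array weights, 1 with all 24 arrays in a single fit and 3 to 4 with an array left out. Calls over all probe sets moved likewise, from 2150 to 4431, 5480 and 1674. In tolerant plants (0) they numbered 2 after repeated quantile normalization, 4 with arrays centred on medians, 2 with array weights and 0 to 1 with an array left out, when cellulase was called without the third tolerant control array and TBG1 without the second. Calls over all probe sets, 5564 there, were 5444, 6262 and 8297. For the difference of heat responses (2) they numbered 5 with array weights, 0 with all 24 arrays and 1 to 3 with an array left out, while all calls went from 2786 to 7197 and 2145. Drought calls of genes from the heat table stayed at 4 in susceptible plants and at 4 in tolerant plants with an array left out, but TBG2 was lost in the latter with only the groups compared, and those for the difference (1) numbered 1 to 2, when tEG3 was added without the third tolerant control array. Over all 11 genes, limma called 6 mean genotype differences in drought and 9 in heat, beside 73.3% and 57.5% of all probe sets. Those counts include listed genes, for which they are descriptions and no test. With an array left out they were 6 to 9 and 7 to 9, and 5 in heat with all 24 arrays. Calls for genes not listed in the table concerned (3 and 3, added after seeing the data) numbered 3 to 4 and 1 to 3 with an array left out. In heat they numbered 0 with all 24 arrays. Called responses of other wall enzymes (6) numbered 6 to 7 with an array left out. Some of the alternatives for these enzymes were chosen after seeing the data. Cases near background (6 of 88) fell to 1 with the 90th percentile. With arrays centred on medians the tolerant heat response of Cel2 turned to −0.22 (adjusted p = 0.0365), where the median of all probe sets moved from 0.01 to −0.27. That centring changed the split of higher and lower calls from 2992 and 2572 to 1928 and 4334 for heat in tolerant plants, from 1226 and 924 to 986 and 1314 in susceptible plants, from 1566 and 1220 to 1205 and 1778 for their difference, and from 3193 and 2615 to 4335 and 2138 between genotypes. Repeated quantile normalization lowered the median genotype difference of the drought experiment from 0.18 to 0.07 and ended the call for cel5 there. The causes were not tested.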
